A study of Mus musculus with 24 samples.

Results

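The comparison set B cells sorted from the spleens of NOD mice and labelled T3 against B cells sorted from the same strain and labelled T2FO. The arrays are taken by their labels, and the pair of groups was picked because Fcer2a was higher in the first; it takes 4 of the 24 arrays of the study, 2 per group. The T3 and T2FO arrays held RNA of female NOD/ShiLtJ mice aged 7 weeks, the strain that develops autoimmune diabetes. The same subsets of female C57BL/6/J (B6) mice of that age serve for comparison, with B6 T2FO set against B6 T1. In each experiment, cells of 8 mice of a strain were pooled, cells carrying CD3ε or CD11b were depleted, and 6 subsets, labelled T1, T2FO, T2MZ, T3, MZ and FO, were separated by flow cytometry with antibodies to CD93, CD23, CD21/35, CD24, IgM and B220. The experiment was done a second time, so each group has 2 arrays from separate pools. No array holds a single mouse, and the spread between arrays is that between 2 pools. RNA was amplified in 2 cycles from its 3′ end and read on Affymetrix mouse genome arrays.

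Transitional B cells are the immature cells that leave the bone marrow and complete their selection in the spleen. T1 cells carry CD93 and little CD23 or CD21. T2 cells gain CD23, the low-affinity IgE receptor encoded by Fcer2a, and CD21, the complement receptor encoded by Cr2. T3 cells also carry CD93 and CD23 but less surface IgM, and have been described as anergic rather than as a step towards the follicular (FO) cell. Marginal zone (MZ) cells, the other mature fate, carry much CD21 and little CD23. On activation a B cell can turn into an antibody-secreting plasma cell, a change driven by the transcription factors Blimp-1 (Prdm1), IRF4 and XBP1, with an enlarged endoplasmic reticulum (ER).

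All values are deposited log2 values from which the median of the probe set across all 24 arrays had been taken away. A value of 0 is therefore that probe set's middle value and no value is a level of expression: only differences between arrays can be read, and whether the sorted cells express B cell markers cannot be checked. Each of 18193 genes was represented by its most variable probe set.

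The transcripts of the sort markers were first set beside the labels. Fcer2a was at 1.99 and 1.08 on the NOD T3 arrays, against -0.45 and -1.15 on the NOD T2FO arrays, a difference of 2.33 in the mean. The groups did not overlap, and the 2 probe sets of the gene differed in the same direction. In B6 mice Fcer2a was at -0.60 and -0.31 in T2FO cells, against -1.29 and -1.16 in T1 cells, a difference of 0.77. Cr2 was at -0.66 and -1.17 in NOD T3 cells, against -1.39 and -1.19 in NOD T2FO cells, and the difference of 0.37 was close to the gap between the 2 T3 arrays. In B6 mice Cr2 was at -0.97 and -0.66 in T2FO cells, against -1.83 and -1.62 in T1 cells, a difference of 0.91 without overlap. Cd93 was at 0.09 and 0.23 in NOD T3 cells, against 0.51 and -0.09 in NOD T2FO cells, so these groups overlapped. In B6 mice Cd93 was at 2.72 and 2.77 in T2FO cells, against 3.14 and 2.98 in T1 cells. These 3 transcripts were used to choose the comparison and are given as a description without a test. Of the other sort markers, Cd24a, the heat-stable antigen CD24, was at 0.14 and -0.24 in NOD T3 cells, against 0.22 and 0.06 in NOD T2FO cells. Ptprc, which encodes the B220 form of CD45, was at 0.22 and -0.17 in NOD T3 cells, against 0.69 and -0.10 in NOD T2FO cells. Ighm, the IgM heavy chain, was at -0.01 and 2.07 in NOD T3 cells, against -0.01 and 0.35 in NOD T2FO cells, and its spread within the T3 group exceeded the difference. Only 3 of its 11 probe sets had that direction.

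The subset labels of the NOD arrays are in doubt. CD23 is carried by T2 and T3 cells, and T2FO and T3 were sorted as separate subsets of such cells. In B6 mice Fcer2a averaged -0.25 in T3 cells and -0.46 in T2FO cells, a difference within the spread of the T3 arrays. In NOD mice the low Fcer2a groups were T2FO at -0.80 and T1 at -1.56, while T2MZ was at 1.64, T3 at 1.54, MZ at 0.97 and FO at 0.79. The arrays labelled NOD MZ were thus far above the B6 MZ mean of -1.53. Cr2 was highest among NOD groups in T1 cells, at a mean of 1.20, where B6 T1 cells had the lowest B6 mean of -1.72. Cd93 was lowest in NOD T1 cells, at -2.09, against the highest B6 mean of 3.06 in B6 T1 cells. Genes of marginal zone cells also ran against the labels: their median was 2.37 and 1.90 on the NOD T1 arrays and 0.78 and 0.84 on the NOD MZ arrays. Both groups compared here had a Cd93 mean above those of the other NOD groups, at 0.16 in T3 and 0.21 in T2FO cells. The groups are therefore called the libraries labelled T3 and T2FO, and every NOD difference is labelled T3 minus labelled T2FO.

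**Figure D1:**
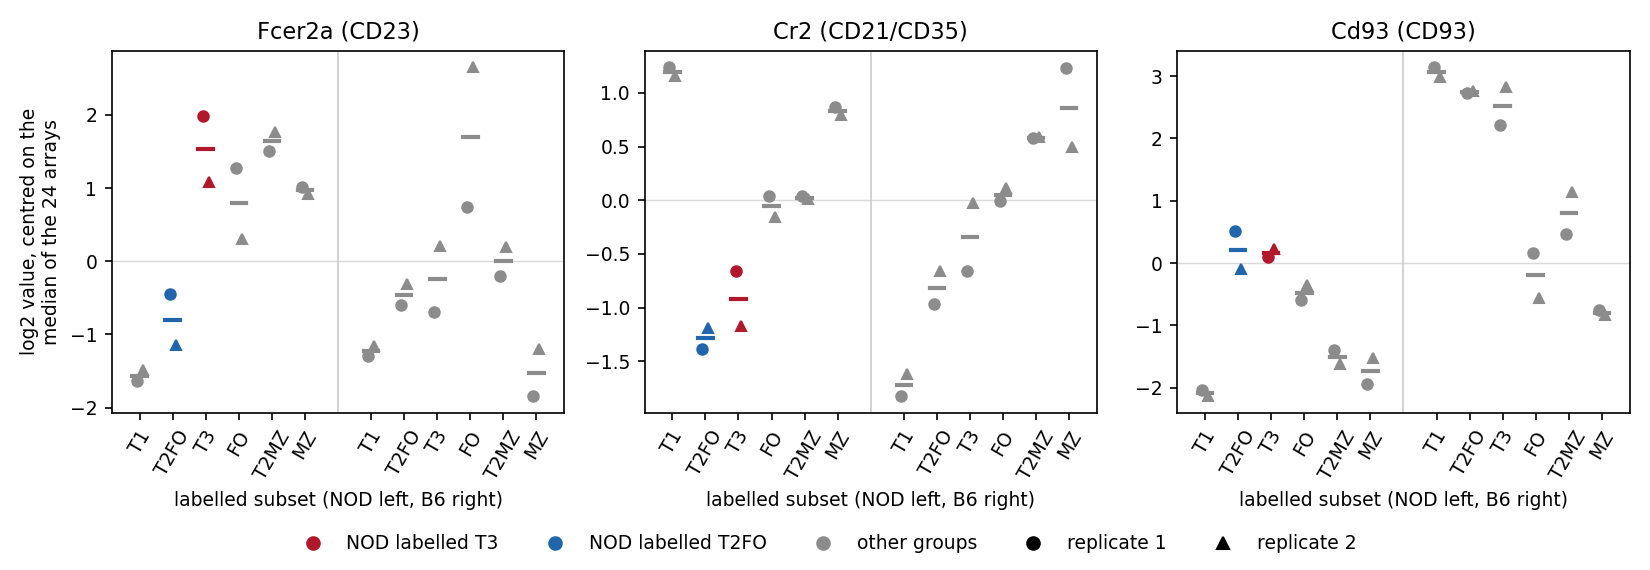
Each point is 1 array, placed by its centred log2 value (vertical axis) of Fcer2a, Cr2 or Cd93, for the 6 labelled subsets of NOD and of B6 mice (horizontal axis), with a bar at the mean of each group. Fcer2a lies at 1.99 and 1.08 in the NOD libraries labelled T3 and at -0.45 and -1.15 in those labelled T2FO, while the NOD T1 arrays stand high for Cr2 and low for Cd93, opposite to B6 T1.

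Fcer2a is a known target of Notch signalling in B cells, and one of its 3 RefSeq promoter windows holds the core of the RBPJ motif, TGGGAA, in 2 places. The window is shown because the comparison turns on this gene. It covers chr8:3690862-3691111 of GRCm38.p6, the 250 bases before a start on the minus strand, and the capitals mark the motif as it reads on the opposite strand, TTCCCA.
Fcer2a: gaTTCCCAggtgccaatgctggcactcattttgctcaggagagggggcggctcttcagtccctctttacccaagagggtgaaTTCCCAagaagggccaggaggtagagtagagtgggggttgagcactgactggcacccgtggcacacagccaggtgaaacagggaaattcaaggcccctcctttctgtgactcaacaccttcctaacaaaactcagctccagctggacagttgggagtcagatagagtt
The motif is short: on either strand it was found in 21.6% of 32851 windows of this length and in 24.2% of 14452 measured genes with a window, so its presence here is a description only. Genes of the Notch pathway had a median difference of 0.05 between the libraries labelled T3 and T2FO, close to the median of 0.04 over all genes. In that list Notch1, a receptor, differed by -0.53, and Dtx1, a Notch target of marginal zone cells, differed by -0.72, with 1 of its 2 probe sets in that direction and a mean of -0.30; neither passed the test.

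The 4 arrays were not tightly paired by label. After the NOD mean was taken off each gene, the 2 arrays labelled T3 correlated at 0.003 over genes, and the 2 arrays labelled T2FO at 0.287. T3 replicate 1 was most like FO replicate 1, at 0.384, and T3 replicate 2 was most like T2FO replicate 1, at 0.277. T2FO replicate 1 was most like T3 replicate 1, at 0.302, and T2FO replicate 2 was most like FO replicate 2, at 0.386. By comparison, the 2 arrays labelled NOD T1 correlated at 0.524. The median spread between replicates was 0.304 in T3 and 0.337 in T2FO, against 0.280 over all NOD groups and 0.514 over B6 groups. The actin control probes near the 5′ end, less those at the 3′ end, stood at 0.51 and -0.19 in T3 and at -0.68 and 0.09 in T2FO, against 0.39 to 0.63 on the other NOD arrays. Of the 4 arrays compared, 3 thus lay below the range of the other NOD arrays, and with this difference as a covariate the fit called 0 genes, with 2537 at an unadjusted p under 0.05.

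The libraries labelled T3 had lower amounts of Prss23 and Eaf2 transcript than those labelled T2FO, and these were the only genes to pass limma's test over the 12 NOD arrays at an adjusted p under 0.05. That is 2 of 18193 genes, or 0.011%, with 0 higher and 2 lower in T3. Prss23, a serine protease, was at 0.15 and 0.06 in T3, against 2.34 and 1.90 in T2FO, a difference of -2.02 ± 0.18 (SE, n = 2 arrays each; limma adjusted p = 0.0138). Its 3 probe sets differed in the same direction, with a mean difference of -0.85. Eaf2, a transcription elongation factor whose level is high in plasma cells, was at 0.41 and 0.46 in T3, against 2.18 and 2.33 in T2FO, a difference of -1.82 ± 0.19 (SE, n = 2 arrays each; limma adjusted p = 0.0303). In both genes the arrays within a group lay far closer together than the groups. As each array holds RNA of a sorted pool, fewer cells of 1 kind and less RNA per cell cannot be told apart. At an unadjusted p under 0.05, 1130 genes were higher (6.21%) and 641 were lower (3.52%) in T3, together 1771 genes (9.73%). Counting only position, 3532 genes had both T3 arrays above both T2FO arrays (19.4%) and 2681 had both below (14.7%).

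The call depends on single arrays. Without T3 replicate 1, or without T3 replicate 2, 0 genes passed limma's test, and without T2FO replicate 2 only 1 did. Without T2FO replicate 1, 515 genes passed, 157 higher and 358 lower. Both Prss23 and Eaf2 were among those 515. Each gene was called in 7 of 14 alternative settings, with adjusted p of 0.0079 to 0.51 for Prss23 and 0.0079 to 0.518 for Eaf2. The difference itself ranged from -2.24 to -0.85 for Prss23 and from -1.90 to -1.74 for Eaf2.

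The first of the 3 RefSeq promoter windows of Eaf2 holds GACGTG, the core of the unfolded protein response element that XBP1 can bind, and is shown because Eaf2 is the called gene that belongs to the plasma cell list. It covers chr16:36874827-36875076 of GRCm38.p6 on the minus strand, with the motif in capitals.
Eaf2: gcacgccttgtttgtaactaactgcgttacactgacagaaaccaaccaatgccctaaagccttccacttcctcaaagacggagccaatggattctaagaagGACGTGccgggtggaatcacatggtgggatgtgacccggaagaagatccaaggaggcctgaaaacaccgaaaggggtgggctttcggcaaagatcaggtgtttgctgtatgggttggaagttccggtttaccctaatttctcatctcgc
This core was found, on either strand, in 5.2% of all 32851 windows and in 7.72% of 14452 measured genes. Among 12 plasma cell genes with a window 2 held it, and among 20 genes called lower in T3 with the replicate number as a block 2 held it. Prss23 has 7 windows, and none of them holds these letters.

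Both subsets of an experiment came from the same pool of mice, so the fit was repeated with the replicate number as a block. That the number names the experiment is an assumption. The block called 32 genes (0.176%), of which 4 were higher (0.022%) and 28 were lower (0.154%) in T3, and it kept Prss23 and Eaf2 at a limma adjusted p of 0.0079 each. Among the 4 higher genes is Fcer2a, whose rise chose the comparison, so its call is not a test. With the pool as a random block instead, at the estimated within-pool correlation of 0.107, only Prss23 and Eaf2 passed. The other 30 genes were called with the fixed block but not with the random one. No called gene had arrays that overlapped between the groups, but calling a gene on 2 arrays per group favours this outcome. Of all genes, 19.4% had both T3 arrays above both T2FO arrays and 14.7% had both below. Fits that left out 1 array reuse the remaining ones, so they give no separate support for the calls made with the block. In the fit over the 12 NOD arrays without the block none of these other 30 genes had an adjusted p under 0.05.

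The higher genes were Fcer2a, which was used to choose the comparison, Rflnb, Gpr174 and Pglyrp2. Rflnb, a regulator of filamin, was at 0.96 and 1.02 in T3, against -0.62 and -0.76 in T2FO, a difference of 1.68 (limma adjusted p with the block 0.0272). Gpr174, a receptor for lysophosphatidylserine on lymphocytes, was at 0.27 and 0.06 in T3, against -1.03 and -1.88 in T2FO, a difference of 1.62 (limma adjusted p with the block 0.0254). Pglyrp2, which cleaves bacterial peptidoglycan, was at -0.54 and -0.26 in T3, against -2.20 and -1.66 in T2FO, a difference of 1.53 (limma adjusted p with the block 0.0481). All were higher on both T3 arrays than on both T2FO arrays.

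Among the lower genes were regulators and surface proteins of the plasma cell. Prdm1, whose product Blimp-1 shuts down the B cell programme, was at 0.11 and -0.33 in T3, against 1.97 and 2.54 in T2FO, a difference of -2.37 (limma adjusted p 0.0481 with the block and 0.162 without). Sdc1, which encodes the plasma cell surface marker CD138, was at -0.11 and 0.70 in T3, against 1.88 and 2.60 in T2FO, a difference of -1.95 (limma adjusted p with the block 0.025). Both were lower on the 2 T3 arrays than on the 2 T2FO arrays, as was Eaf2. Ahr, the aryl hydrocarbon receptor, was at -1.71 and -1.15 in T3, against 0.25 and 0.88 in T2FO, a difference of -1.99. Actn1, an actin cross-linker, was at -0.63 and -0.31 in T3, against 1.55 and 1.88 in T2FO, a difference of -2.19 (limma adjusted p with the block 0.0079). Ccr9, a chemokine receptor for homing to the gut, was at 0.15 and 1.31 in T3, against 2.42 and 2.41 in T2FO, a difference of -1.69. Its 5 probe sets all differed downwards, but by only -0.54 in the mean, so the size for Ccr9 depends on the probe set. 1810046K07Rik, an uncharacterised gene, showed the largest called difference, at 1.17 and 1.31 in T3, against 3.67 and 4.15 in T2FO (-2.66). Chst1, a sulfotransferase, was at 0.64 and 0.40 in T3, against 2.47 and 3.34 in T2FO (-2.39). Fras1, an extracellular matrix protein, was at 0.60 and 0.70 in T3, against 2.42 and 2.89 in T2FO (-2.01). Camk2n1, an inhibitor of the kinase CaMKII, was at -0.07 and -0.05 in T3, against 1.56 and 1.95 in T2FO (-1.82). In a fit of all 24 arrays Camk2n1 and Fras1 were the 2 genes that passed, and Prss23 and Eaf2 were not among them.

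The rest of the lower genes differed by -2.24 to -0.89. They were Oosp1 (-2.24), Atxn1 (-2.22), the protease inhibitor Slpi (-1.97), the cell adhesion protein Emb (-1.91), the ER protein Tram2 (-1.78), the sialyltransferase St8sia6 (-1.56), Pkd2l2 (-1.54), Lysmd2 (-1.45), Plpp5 (-1.44), Fndc3b (-1.42), Itm2c (-1.42), Bcl2l15 (-1.41), Rhbdf1 (-1.41), the metalloproteinase inhibitor Timp2 (-1.25), the potassium channel Kcnn4 (-1.24), the phosphatase Cdc14b (-1.19) and Sft2d2 (-0.89). Of these, Atxn1 and Timp2 had probe sets in both directions. The libraries labelled NOD T2FO had the highest mean of all 12 groups of the study in 20 of the 28 lower genes (71.4%), against 2333 of 18193 genes in all (12.8%). These 28 genes were called because T2FO lay above T3, so a high T2FO rank is in part built in. The share is a description only.

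**Figure D2:**
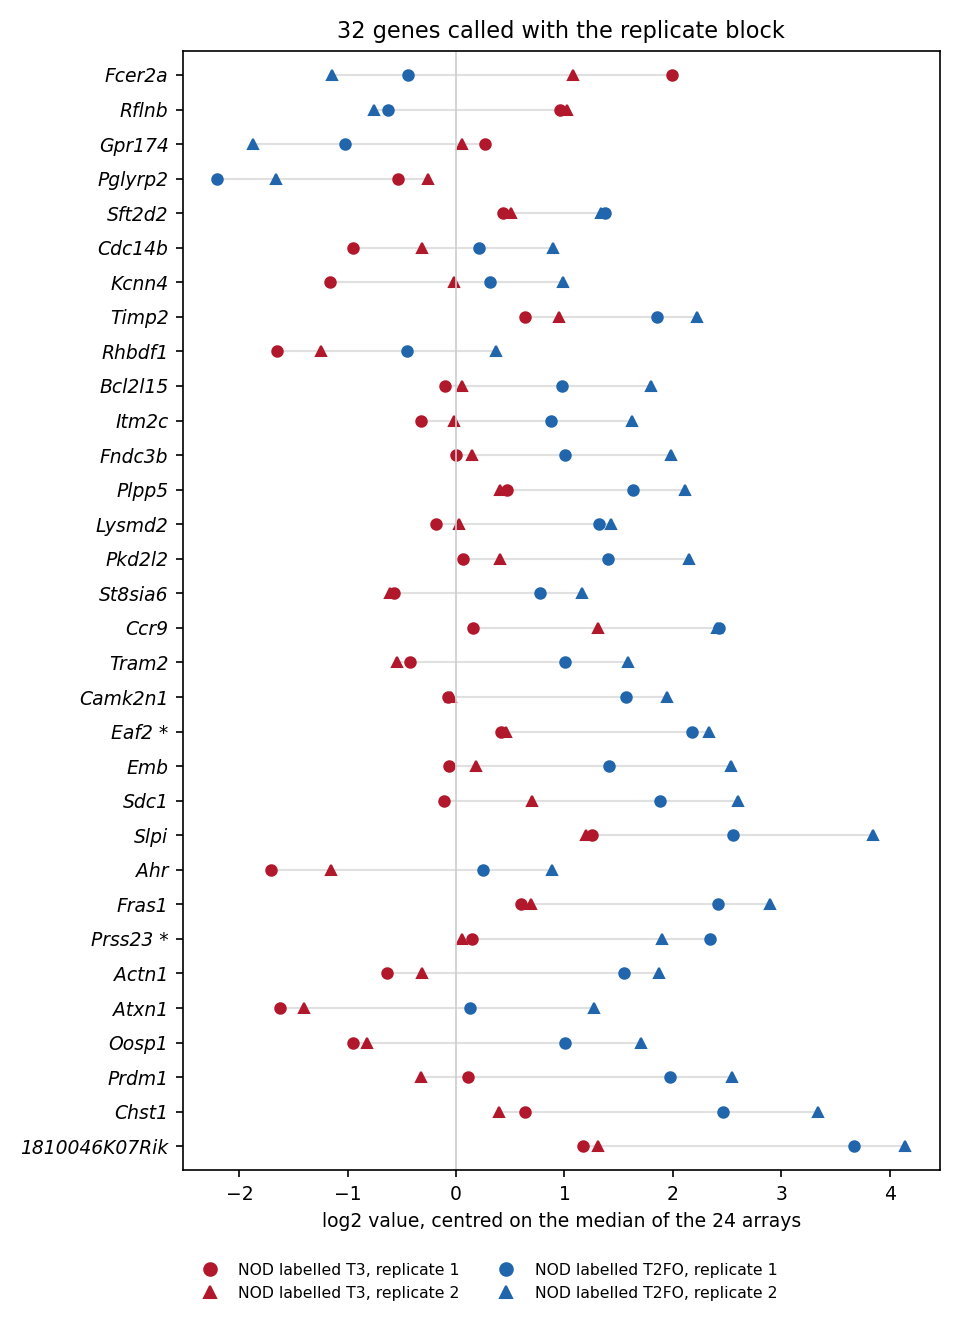
Centred log2 values (horizontal axis) of the 32 genes called with the replicate block (rows), with the arrays labelled NOD T3 and NOD T2FO as separate symbols; a star marks the 2 genes called without the block. The top 4 rows, from Fcer2a, which chose the comparison, to Pglyrp2, have both T3 arrays above both T2FO arrays. The other 28 have both T3 arrays below both T2FO arrays.

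Plasma cell genes mostly had lower values in the libraries labelled T3. Of 16 listed genes 15 were measured, and 14 of these had differences below 0 (45% of all genes did). Of the 15 genes, 13 had both T3 arrays below both T2FO arrays (14.7% of all genes), 12 were lower at an unadjusted p under 0.05 (3.52% of all genes), and 0 were higher at that p. Eaf2 passed after adjustment, and Prdm1 and Sdc1 joined it with the block. The median difference was -1.23, against 0.04 over all genes, and was -0.78 in replicate pair 1 and -1.69 in replicate pair 2. Leaving out 1 array at a time kept the median between -1.81 and -1.002. Txndc5, a disulfide isomerase of secretory cells, was at 1.85 and 1.23 in T3, against 3.08 and 3.70 in T2FO, a difference of -1.85. Tnfrsf17, the survival receptor BCMA, was at 0.39 and 0.95 in T3, against 1.70 and 2.76 in T2FO (-1.56). Edem1, a factor of ER-associated degradation, was at 0.73 and -0.29 in T3, against 1.49 and 2.03 in T2FO (-1.54). Xbp1 was at 0.57 and 0.23 in T3, against 1.01 and 1.60 in T2FO (-0.90). In these 4 genes the T3 arrays were the lower ones without overlap, but none passed after adjustment. Jchain, the joining chain of secreted IgM and IgA, was at 2.49 and 1.65 in T3, against 3.58 and 4.13 in T2FO, and its difference of -1.79 ± 1.34 (SE, n = 2 arrays each) was within the spread of the NOD arrays. Irf4 differed by -0.61, Mzb1, an ER chaperone of B cells, by -0.68 and Cd28 by -1.23. Zbp1, at 0.31, was the exception in direction.

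The median of the plasma cell list on each array was 0.11 and 0.09 in T3, against 1.49 and 1.77 in T2FO, and between -0.48 and 0.49 on the other NOD arrays. The libraries labelled T2FO had the highest mean of the 12 groups in 13 of the 15 genes (86.7%, against 12.8% of all genes). The plasma cell genes thus moved with the labels, and their part in the other differences was not tested. The sort included B220, which plasma cells carry at reduced amounts.

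**Figure D3:**
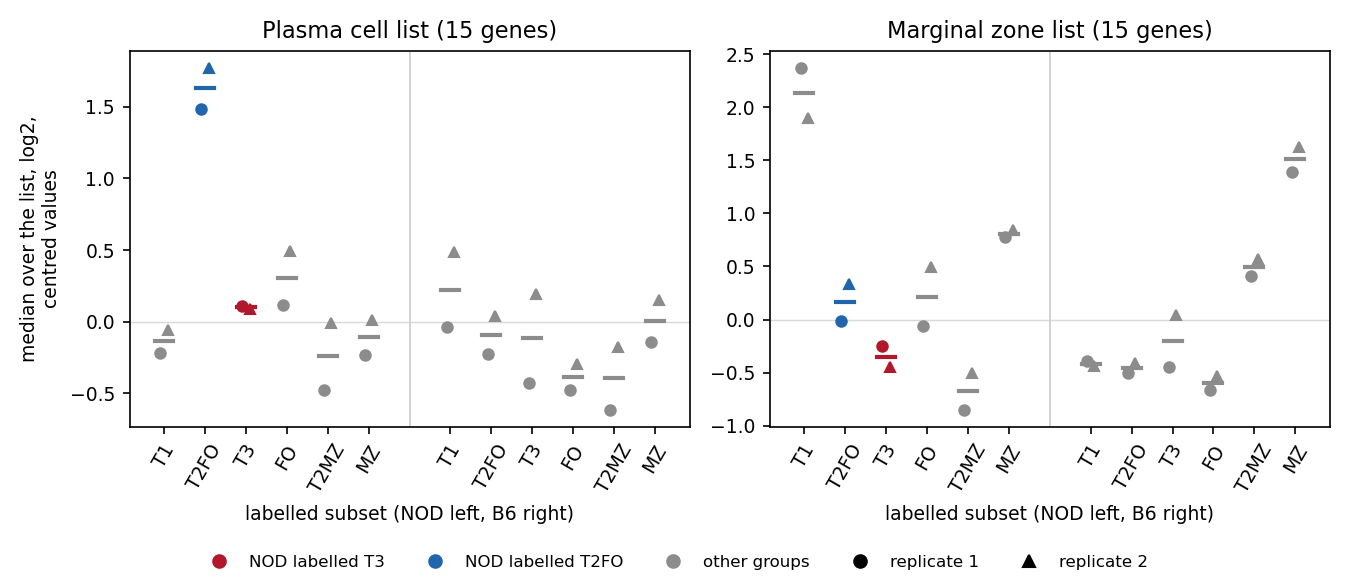
Median centred log2 value (vertical axis) of the plasma cell list and of the marginal zone list on each array, for the 6 labelled subsets of NOD mice (left) and B6 mice (right), 2 points per subset. The NOD arrays labelled T3 have plasma cell medians of 0.11 and 0.09 and those labelled T2FO have 1.49 and 1.77; the marginal zone list is highest on the NOD arrays labelled T1.

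Genes for protein folding in the ER, the machinery that secretory cells enlarge, leaned the same way to a smaller extent. Of 28 measured genes 24 were below 0 (45% of all genes) and 4 were lower at an unadjusted p under 0.05 (3.52% of all genes). After adjustment 0 passed, with or without the block. The median was -0.32, but it was 0.13 in replicate pair 1 and -0.75 in pair 2, so this list rests on the second pair. Without T3 replicate 2 it was 0.02, without T2FO replicate 2 -0.14 and without T3 replicate 1 -0.49. Hsp90b1, the ER chaperone GRP94, was at 1.30 and 0.83 in T3, against 2.04 and 1.92 in T2FO (-0.91), with no overlap. Creld2, an ER stress protein in the plasma cell list, was at 0.77 and 0.20 in T3, against 1.49 and 1.57 in T2FO (-1.04). Dnajc3, a co-chaperone, differed by -0.89, but only 2 of its 5 probe sets had that direction and their mean was -0.10. The promoters of Creld2 and Hsp90b1 are shown because they hold the ER stress element, that is CCAAT, then 9 bases of any kind, then CCACG, the site through which ATF6 acts on such genes. They cover chr15:88819396-88819645 on the plus strand and chr10:86705445-86705694 on the minus strand of GRCm38.p6, and the capitals mark the fixed letters of each match. In Creld2 the match lies on the opposite strand, and Hsp90b1 has 1 match on each strand.
Creld2: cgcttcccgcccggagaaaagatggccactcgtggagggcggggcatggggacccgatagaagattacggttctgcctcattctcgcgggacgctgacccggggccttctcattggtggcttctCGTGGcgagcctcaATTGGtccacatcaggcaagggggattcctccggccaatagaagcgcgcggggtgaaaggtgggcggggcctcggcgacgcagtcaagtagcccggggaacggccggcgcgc
Hsp90b1: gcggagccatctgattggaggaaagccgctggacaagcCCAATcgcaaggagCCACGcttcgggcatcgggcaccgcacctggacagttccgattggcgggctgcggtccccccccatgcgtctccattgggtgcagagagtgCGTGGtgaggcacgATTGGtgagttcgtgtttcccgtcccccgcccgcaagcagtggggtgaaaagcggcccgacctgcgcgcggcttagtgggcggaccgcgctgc
The element is rare, at 0.113% of 32851 windows and 19 of 14452 measured genes. It was found in 7 of 23 ER folding genes with a window (30.4%), namely Hspa5, Calr, Hsp90b1, Canx, Pdia6, Dnajc3 and Syvn1, in 1 of 12 plasma cell genes and in 0 of 20 genes lower in T3 with the block.

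The list of immunoglobulin constant region genes also holds Jchain, which is not a constant region, and 4 of its 12 genes could be read. These were Ighm (0.86), Igha, Ighg3 and Jchain (-1.79), and their median difference was -0.92, with -1.41 in pair 1 and -0.09 in pair 2. It was -0.23 without T3 replicate 1 and -1.40 without T3 replicate 2. Ighg3 was at 0.21 and -0.30 in T3, against 1.94 and 1.35 in T2FO (-1.69; limma adjusted p = 0.17), and only 2 of its 4 probe sets differed in that direction. Igha differed by -0.15, and the mean of its probe sets by 0.07. Immunoglobulin probe sets share sequence, so reads of single constant regions are uncertain.

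Genes that distinguish follicular from marginal zone cells differed in opposite directions, with no gene passing after adjustment. Of 17 measured follicular and mature B cell genes 15 were above 0 (55% of all genes) and the median was 0.36, with 0.36 in pair 1 and 0.26 in pair 2. It was 0.19 without T3 replicate 1 and 0.56 without T3 replicate 2. At an unadjusted p under 0.05, 4 were higher and 1 was lower, against 6.21% and 3.52% of all genes. Zfp318, a regulator needed for IgD, was at -0.55 and 0.33 in T3, against -1.25 and -1.68 in T2FO, a difference of 1.35 shared in direction by its 5 probe sets. Icosl, the ligand of the T cell receptor ICOS, was at 0.58 and 0.04 in T3, against -0.40 and -1.22 in T2FO (1.12). Cxcr5, the receptor that guides B cells into follicles, was at 0.14 and 0.13 in T3, against -0.20 and -0.95 in T2FO (0.71). S1pr4, a sphingosine phosphate receptor, was at 0.86 and 1.31 in T3, against 0.48 and 0.03 in T2FO (0.83). All 4 were higher on both T3 arrays. Zbtb32, a repressor found in memory and plasma cells although listed here, differed by -1.05, with 1 of its 2 probe sets in that direction.

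Of 15 measured marginal zone genes 14 were below 0 (45% of all genes). The median was -0.43, with -0.42 in pair 1 and -0.73 in pair 2, and -0.79 without T2FO replicate 1. At an unadjusted p under 0.05, 7 were lower and 0 higher, against 3.52% and 6.21% of all genes. S1pr3, a sphingosine phosphate receptor of marginal zone cells, was at -2.17 and -0.98 in T3, against -0.01 and 0.77 in T2FO (-1.96; limma adjusted p = 0.419). Nebl was at -1.37 and -1.44 in T3, against -0.13 and 0.66 in T2FO (-1.67; limma adjusted p = 0.414). Cd9, a tetraspanin of marginal zone and B-1 cells, was at -0.49 and -0.66 in T3, against 0.12 and 1.55 in T2FO (-1.41; limma adjusted p = 0.506). In these 3 genes the T3 arrays were lower without overlap, and none passed. Mzb1 stands in this list as well as in the plasma cell list. The median of the list on each array was -0.25 and -0.45 in T3, against -0.01 and 0.34 in T2FO, which lies below the 0.78 and 0.84 of the NOD MZ arrays.

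MHC class II and costimulation genes, through which B cells present antigen to T cells, were mostly above 0. Of 21 genes 18 were above 0 (55% of all genes), and the median was 0.23. Of the 21, 6 were higher and 1 was lower at an unadjusted p under 0.05, against 6.21% and 3.52% of all genes. The pairs gave 0.36 and 0.27, and without T3 replicate 2 the median was 0.35. H2-DMb2, part of the peptide exchanger of class II, was at 1.27 and 0.01 in T3, against -0.87 and -0.01 in T2FO (1.08). H2-Ab1, a class II chain, was at 0.98 and 0.10 in T3, against -0.39 and -0.10 in T2FO (0.79). Ciita, the master activator of class II genes, was at 0.75 and 0.27 in T3, against 0.10 and -0.47 in T2FO (0.70). Most of the difference in H2-DMb2 and H2-Ab1 came from replicate pair 1, as the second arrays lay close together.

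Proliferation genes had a median of -0.32, with 23 of 35 below 0 (45% of all genes). Only 1 was lower at an unadjusted p under 0.05, no more than the share of 3.52% over all genes. The median was -0.08 without T3 replicate 1 and -0.14 without T2FO replicate 2. Mki67, a marker of cycling cells, was at -0.97 and -0.29 in T3, against 0.54 and 1.15 in T2FO (-1.47; limma adjusted p = 0.531). Chemokine and other migration receptors (median 0.20) split, with 4 of 18 higher and 2 lower at an unadjusted p under 0.05, against 6.21% and 3.52% of all genes. With the block Gpr174 was called higher and Ccr9 lower, against 0.022% and 0.154% of all genes, and neither was called without it. Cytokine receptors split as well, with 4 of 25 higher and 3 lower at an unadjusted p under 0.05, against 6.21% and 3.52% of all genes. Csf2rb, the shared chain of the IL-3, IL-5 and GM-CSF receptors, was at -1.15 and -0.77 in T3, against 0.48 and 0.92 in T2FO (-1.66). Il5ra, the IL-5 receptor chain of B-1 cells and plasma cell precursors, was at -0.34 and -0.33 in T3, against 0.37 and 0.77 in T2FO (-0.91). Il6st, the gp130 chain of the IL-6 receptor, was at 0.47 and 0.84 in T3, against 1.53 and 2.16 in T2FO (-1.19), though only 2 of its 4 probe sets had that direction. None of these receptors passed after adjustment in either fit, and Il4ra at 0.90, Il10ra at 0.76 (0.16 as the mean of its probe sets) and Il21r at 0.59 lay on the other side of 0. Among transcription factors Bcl6, which opposes Prdm1, was at 0.52 and 0.38 in T3, against 0.01 and -0.77 in T2FO (0.83). Nfatc1 was at -0.62 and -0.43 in T3, against 0.40 and 0.98 in T2FO (-1.21). Neither passed after adjustment.

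Other lists depended on 1 array or pair. Interferon-induced genes had 21 of 24 members above 0 (55% of all genes) and a median of 0.42, but -0.06 in pair 1 and 0.78 in pair 2. Without T2FO replicate 2, whose median for this list was -0.81, the difference was -0.10. Respiratory chain genes had 82 of 92 members above 0 and a median of 0.26, made of 0.01 in pair 1 and 0.59 in pair 2. Of the 92, 11 were higher and 1 was lower at an unadjusted p under 0.05, against 6.21% and 3.52% of all genes. Immediate early genes had a median of -0.36 (0.11 and -0.76 by pair) and heat shock genes of -0.23 (0.15 and -0.90 by pair). Without T3 replicate 2 the medians were 0.01 for respiratory chain, -0.08 for immediate early and 0.05 for heat shock genes, and without T3 replicate 1 they were 0.56 for respiratory chain, -0.62 for immediate early and -0.64 for heat shock genes. Without T2FO replicate 2 the immediate early median was -0.21. The second pair thus sets the values of all 4 lists. B cell receptor signalling genes had a median of 0.14, inhibitory coreceptors 0.18, the BAFF and NF-kB list 0.23, the BCL2 family -0.10, transcription factors 0.03, ribosomal proteins 0.14, integrins 0.06, cytokine receptors 0.06, D cyclins and their inhibitors 0.02, Toll-like receptors -0.05 and Kruppel-like factors -0.11. These medians lay within 0.2 of that of all genes. Of the ribosomal protein genes, though, 43 of 49 were above 0 (55% of all genes), with medians of 0.04 and 0.24 by pair. Only 1 of them was higher and 0 were lower at an unadjusted p under 0.05.

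Markers of other cells showed no common shift. The medians were -0.06 for T cells, 0.01 for myeloid cells, -0.03 for dendritic cells, 0.24 for NK cells and 0.00 for erythroid cells and platelets. The myeloid list had array medians of -0.20 and -0.07 in T3, against -0.06 and -0.10 in T2FO, well under the 1.50 and 1.36 of the arrays labelled NOD FO. Single markers stood out: Apoe, an apolipoprotein made by macrophages, was at -0.19 and -1.36 in T3, against 1.20 and 1.76 in T2FO (-2.25; limma adjusted p = 0.162). Car2, a carbonic anhydrase of red cells, was at 0.81 and 1.04 in T3, against -0.66 and -0.79 in T2FO (1.65; limma adjusted p = 0.162). Their part in the result was not tested. Genes of immature and transitional B cells had a median of -0.02, and in that list Crisp3 was at -0.09 and 0.61 in T3, against -1.68 and -1.81 in T2FO (2.00; limma adjusted p = 0.255). Although listed here, Crisp3 had its highest B6 mean in FO cells, at 2.33, and its lowest in B6 T1 cells, at -1.70.

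**Figure D4:**
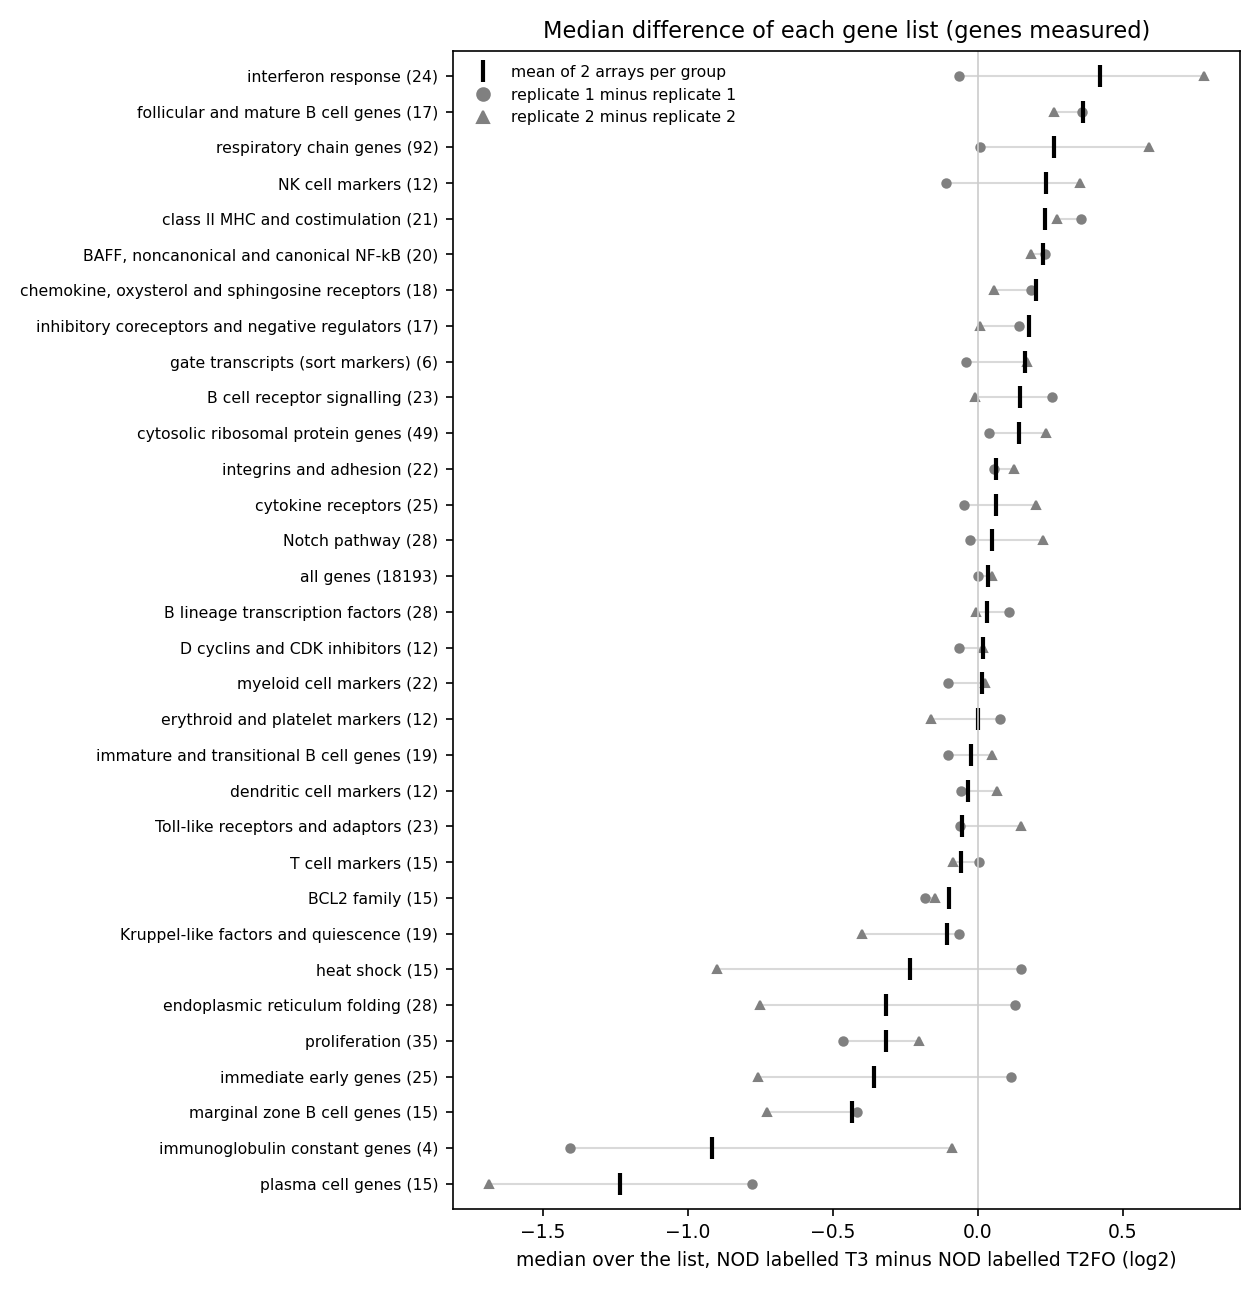
Median difference, NOD labelled T3 minus NOD labelled T2FO on the log2 scale (horizontal axis), for the gene lists and for all genes (rows); the bar is the difference of the group means, and the circle and triangle are replicate pairs 1 and 2. The plasma cell list reaches -1.23 with both pairs below 0, while the interferon list has pairs of -0.06 and 0.78.

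The last question was how this NOD comparison relates to the B6 comparison of T2FO with T1 cells, in which Fcer2a is higher in T2FO cells. The B6 fit over 12 arrays called 0 genes with limma, with 130 at an unadjusted p under 0.05. A fit of only the 4 B6 arrays with the replicate block, a setting chosen after the data were seen, called 137 genes, 89 higher (0.489%) and 48 lower (0.264%) in B6 T2FO. The same 4-array fit called 0 genes for NOD T3 against T2FO, with 995 at an unadjusted p under 0.05. In B6 mice the deviations of same-numbered T1 and T2FO arrays from their group means correlated at 0.893, and in NOD mice those of T2FO and T3 arrays at 0.101. Over 18193 genes, the NOD difference and the B6 T2FO minus T1 difference correlated at 0.276 (Pearson) and 0.241 (Spearman), with 0.173 and 0.236 for the 2 NOD pairs. Against B6 T3 minus T2FO, which carries the same labels, the correlation was -0.093 (Pearson) and -0.094 (Spearman), with -0.062 and -0.078 for the NOD pairs but -0.199 and 0.059 for the 2 B6 pairs. Against B6 FO minus T3 it was 0.156 (Pearson) and 0.116 (Spearman), with 0.287 and 0.009 for the NOD pairs. For B6 T2FO minus T1 the B6 pairs gave 0.202 and 0.224. These correlations are across genes that share the same few arrays, not across samples, and are given as a description. Leaving out the plasma cell, ER folding and proliferation lists left the first at 0.267 over 18115 genes.

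Of the 89 genes higher in B6 T2FO than in B6 T1 cells, 72 were above 0 in NOD T3 against T2FO (80.9%, against 55% of all genes), with a median of 0.46 and a range of -1.19 to 2.33. Fcer2a and Cr2, which chose the comparison, are 2 of the 89, and without them 70 of 87 were above 0 (80.5%), with the same median and a highest value of 2.00. Of the 48 lower genes, 40 were below 0 in NOD (83.3%, against 45% of all genes), with a median of -0.61 and a range of -3.12 to 0.92. Without NOD T3 replicate 1 that median was -0.30. The 4 genes higher in NOD T3 with the block were all among the 89, as 100% of the NOD list and 4.49% of the B6 list, but for Fcer2a this was fixed by the choice of the comparison. The 89 make up 0.489% of all genes. Of the 28 lower genes, Eaf2 and 1810046K07Rik were among the 48, as 7.14% of the NOD list and 4.17% of the B6 list. The 48 make up 0.264% of all genes. Both B6 lists come from the 4-array fit chosen after the data were seen, which had 1 residual degree of freedom. Gpr174 was at -2.09 and -0.20 in B6 T2FO cells, against -3.82 and -1.13 in B6 T1 cells (1.33). Pglyrp2 was at -0.09 and -0.63 in B6 T2FO cells, against -2.17 and -1.66 in B6 T1 cells (1.55). Rflnb was at -1.39 and -1.25 in B6 T2FO cells, against -2.40 and -2.14 in B6 T1 cells (0.96). Eaf2 was at 0.75 and 1.08 in B6 T2FO cells, against 1.63 and 1.95 in B6 T1 cells (-0.87). Within each B6 pair these 4 genes differed in the same direction as in NOD mice.

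Genes that passed in the B6 pairs and had the same direction in NOD mice included secretory, cycling and B cell genes. Txndc5 differed by -1.85 in NOD mice and -1.26 in B6 mice, and Jchain by -1.79 in NOD mice and -2.17 in B6 mice. Tent5c, a poly(A) polymerase that stabilises immunoglobulin transcripts, differed by -3.12 in NOD mice and -1.27 in B6 mice. Bhlha15, the secretory transcription factor MIST1, differed by -1.92 in NOD mice and -0.70 in B6 mice. Pon3 differed by -2.40 in NOD mice and -1.07 in B6 mice. Of the proliferation list 5 genes were among the 48 and all were below 0 in NOD mice, with Mki67 at -1.47 in NOD mice and -0.74 in B6 mice and Ccnb2, a mitotic cyclin, at -1.15 in NOD mice and -1.28 in B6 mice. On the higher side, Crisp3 differed by 2.00 in NOD mice and 1.35 in B6 mice, Zfp318 by 1.35 in NOD mice and 1.14 in B6 mice, and Stat4 by 1.22 in NOD mice and 1.20 in B6 mice. None of these genes passed in NOD mice. Prdm1 and Sdc1, lower in NOD T3 with the block, differed by -0.10 and -0.23 in B6 mice, where neither passed, and the plasma cell list had a B6 median of -0.27, against -1.23 in NOD mice. Some genes went opposite ways: Il6st differed by -1.19 in NOD mice and 0.88 in B6 mice, and Rtp4, an interferon-induced gene, by 0.92 in NOD mice and -0.99 in B6 mice.

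**Figure D5:**
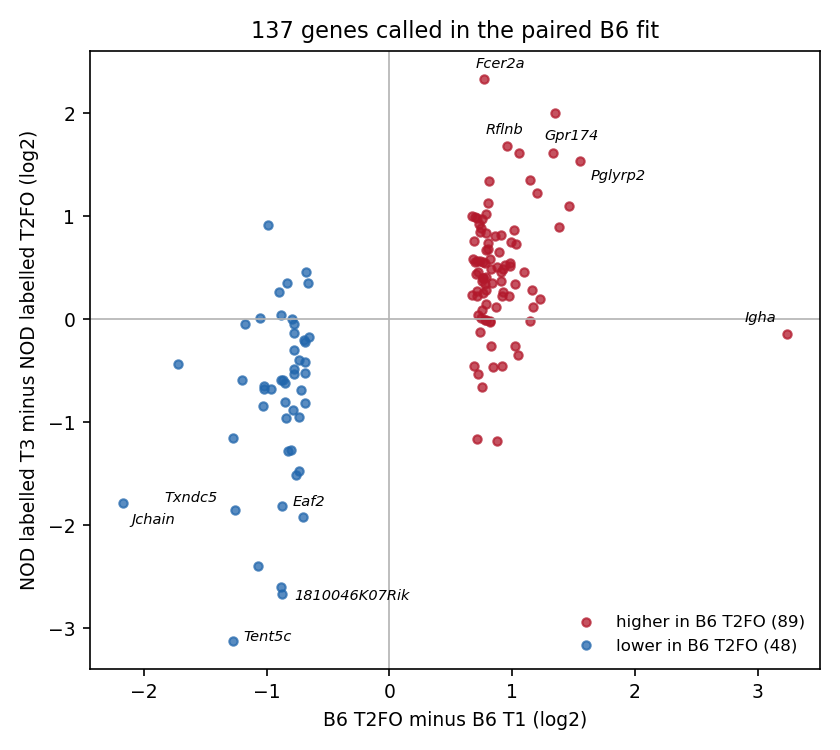
Each point is 1 of the 137 genes called between B6 T2FO and B6 T1 cells in the paired fit, with its NOD labelled T3 minus labelled T2FO difference on the vertical axis and its B6 T2FO minus T1 difference on the horizontal axis, both on the log2 scale. Of the 89 genes higher in B6 T2FO, 72 are also above 0 in NOD mice, and of the 48 lower genes 40 are also below 0.

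No gene was shown to differ between the strains in these steps. The test of the NOD difference less the B6 T2FO minus T1 difference over all 24 arrays called 0 of 18193 genes with limma (239 at an unadjusted p under 0.05), and the smallest adjusted p was 0.132, for Camk2n1 and Fras1. Against B6 T3 minus T2FO the test also called 0 genes (700 at an unadjusted p under 0.05), with a smallest adjusted p of 0.214; without B6 T3 replicate 1 it called 56. With 2 arrays per group and 12 residual degrees of freedom in these fits, a p that misses the threshold does not show that the steps were alike.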

How the data were processed

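The deposited series table was used for 45101 probe sets on 24 arrays. Per the submitters' processing notes the values were made with RMA, and the deposited log2 values are centred on each probe set's median over the arrays (largest row median 5e-07); base 2 is assumed here, as the notes name none. Control probe sets (64) and those with several genes (932) or none (9160) were left out; the other 34945 carry 1 gene in GEO's platform annotation, and 34741 matched a current RefSeq gene, with 0 symbols changed. Each of 18193 genes took its values from the probe set whose SD over the 24 arrays was largest (50.5% of genes have 1 probe set). No filter on dim probe sets was possible.

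Differences were tested with limma 3.58.1 (R 4.3.3; Python 3.11.15 for tables, matplotlib 3.10.9 for figures): 1 mean per group over the 12 arrays of a strain, or over all 24 for the difference between strains, eBayes, and Benjamini-Hochberg adjustment over all genes, called at 0.05. The fit was tested on simulated data. All subsets of an experiment came from 1 pool of mice per strain, which pairs the arrays if the replicate number names the experiment, an assumption the labels do not settle. Correlations of deviations between same-numbered NOD arrays ranged from -0.059 to 0.514 and were 0.101 for T2FO and T3, so blocked values are printed beside the unblocked ones. In B6 mice, FO and MZ arrays correlated at -0.66 to -0.39 with the same-numbered arrays of the other 4 subsets, which goes against the assumption for those groups; they enter the 12-array B6 fits.

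The comparison and the 32 gene lists were chosen with earlier results of these data known, and 1 list is not reported here. Named genes are the 15 largest called differences each way, up to 4 called or 2 uncalled members of each list by smallest p, and the sort markers; the other genes in the text were chosen after their values were seen. Alternatives were another summary of probe sets, another choice of arrays, the block, fixed or random, the actin 5′ to 3′ difference as a covariate, and leaving out each array. Promoter windows of 250 bases come from RefSeq (GRCm38.p6).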

Additional observations from a re-analysis of the deposited data

How the results depend on the processing

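The count of genes called for NOD labelled T3 against labelled T2FO was 2, and it moved with most choices. It was 1 with the mean of a gene's probe sets, 1 over every probe set, 0 with the actin 5′ to 3′ difference as a covariate, 0 from only the 4 arrays and 0 from the 4 arrays with the replicate block, against 32 with the replicate block over 12 NOD arrays; leaving out 1 array gave 0 to 515. For B6 T2FO against T1 the count of 0 became 1 over all 24 arrays and 137 from the 4 arrays with the replicate block. For B6 T3 against T2FO, leaving out 1 array gave 0 to 2. For the NOD step less B6 T3 minus T2FO the count of 0 became 2 with the covariate, and leaving out 1 array gave 0 to 56. The cause of these shifts was not tested; settings with 4 arrays or 1 array fewer also have fewer degrees of freedom. The correlation with B6 T2FO minus T1 ranged from 0.204 to 0.252 when 1 array was left out, the median of the B6-higher genes from 0.40 to 0.54 and that of the B6-lower genes from -0.69 to -0.30. Over 103 named genes, 1431 of 1439 alternative values kept their sign. The 8 others were of uncalled genes: Cd24a (main difference -0.19) at 0.0025 with the probe set chosen within NOD arrays; Cd93 (-0.05) at 0.22 with the covariate, 0.02 without NOD T3 replicate 1 and 0.25 without NOD T2FO replicate 1 (-0.35 to 0.25 over the 4 arrays left out); Ighm (0.86) at -0.15 with the mean of probe sets and -0.18 without NOD T3 replicate 2 (-0.18 to 1.90); Ptprc (-0.27) at 0.12 without NOD T2FO replicate 1 (-0.66 to 0.12); and Zbtb46 (0.33) at -0.049 with the mean of probe sets. Over the 32 lists, 405 of 448 alternative medians kept their sign. Both counts include settings in which the sign could not change. The block, fixed or random, the fit over all 24 arrays and the fits of only the 4 arrays return the same differences as the main fit. Many named genes were also picked by their p in these data, so the counts do not measure robustness.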
